A study of Mus musculus with 4 samples.

Results

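The 37 interferon and antiviral genes described here were listed by symbol, from the sensors that detect foreign nucleic acid to the proteins that block viruses. All 37 were found among the 56980 genes of the files, each with 1 gene ID. They were followed in single-cell RNA-seq of dorsal skin cells of mouse embryos at E16.5 per the labels, sorted for Epcam, a surface protein of epithelia, and for α6 integrin, which faces the basement membrane. Embryos of both groups, Ctrl and TKO (triple knockout), with 2 libraries each, were Suv39h1 f/f, Suv39h2-/- and Setdb1 f/f and were exposed to tamoxifen. TKO embryos had in addition K14CreERT2, whose promoter drives the drug-dependent recombinase in basal keratinocytes, and Ctrl embryos were negative for it. Each library was 1 embryo, both groups lacked Suv39h2, and the study lists a single litter for this experiment, with a deletion it calls mosaic. Per the study, the mice had a mixed genetic background, and each group of a sequencing experiment held both sexes. The sex of each library is not given here, so embryos of a group can differ in sex and background. The labels call the cells basal epithelial, whereas suprabasal, hair follicle and immune markers were also found in the libraries. The deleted genes encode methyltransferases for H3K9me3, found on silent chromatin, so the comparison asks whether loss of this mark in developing epidermis goes with a change of antiviral genes.

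Cells detect viral RNA and DNA with cytosolic and endosomal sensors, which signal through adaptors such as Mavs to the interferon regulatory factors and so to the interferon genes. Secreted interferons bind receptors on the same and neighbouring cells and act through Jak kinases and a complex that contains Stat2 and Irf9. This complex binds short GAAA repeats in promoters and switches on a large set of interferon-stimulated genes, among them the Oas, Mx, Ifit and Ifitm families. Transcripts of retroelements, which H3K9me3 helps to silence in many cell types, can engage the same sensors. Keratinocytes carry receptors for type I interferons, as do the macrophages that reside in embryonic skin.

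Promoter windows of 5 genes on which the results turn are shown first, chosen because they hold a repeat that interferon signalling is known to use. RefSeq promoters of build GRCm38.p6, from 250 bases before to 50 bases after the annotated start, were matched to 27 of the 37 genes. These coordinates belong to another build than the GRCm39 positions of the count files, and the 2 were not mixed. The motif searched was GAAA, any 2 bases, then GAAA, on both strands and with overlapping matches included. It was present in 13 of the 27 matched genes, against 3.99% of the 27025 genes with a promoter in that table. The windows below are 60 bases of the gene's own strand, all on the minus strand of the chromosome, with each match in capitals. They lie at chr5:120907508-120907567 for Oas1a, chr5:120887594-120887653 for Oas1g, chr8:71537565-71537624 for Bst2, chr7:141010700-141010759 for Ifitm3 and chr4:156200856-156200915 for Isg15.
Oas1a: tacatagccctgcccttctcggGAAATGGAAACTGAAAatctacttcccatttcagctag
Oas1g: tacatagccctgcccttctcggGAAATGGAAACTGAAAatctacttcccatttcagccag
Bst2: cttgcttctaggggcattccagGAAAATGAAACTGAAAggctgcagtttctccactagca
Ifitm3: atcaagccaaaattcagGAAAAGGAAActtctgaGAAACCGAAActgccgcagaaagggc
Isg15: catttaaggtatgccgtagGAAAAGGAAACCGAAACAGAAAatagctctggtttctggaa
The Oas1a and Oas1g windows share 59 of 60 bases. These genes are recent copies of each other, so reads that match both could not be told apart and the values of each are uncertain to that degree. The transcript ends that these libraries read were not compared. The promoters of Xaf1, Cgas and Ifi202b held no match in their 300 bases, and Mx1 had no entry. A match describes the letters only, and binding was not measured.

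The 4 matrices held 19789 cell barcodes and 309291898 UMIs (molecular identifiers, each counting 1 captured transcript), with 70749496 to 89655247 UMIs per library. After filtering, 10764 cells remained, of which 9204 were keratinocytes, 1577 to 2992 per library, and 909 were immune-like, 84 to 423 per library. All markers fixed for each class were detected in it, and the 12 immune markers together reached 8.99 to 16.54 CPM (UMIs of a gene per 1000000 UMIs of its sum) in keratinocytes against 9293 to 11150 CPM in immune-like cells. Barcodes shared by libraries numbered 39 in all and 7 among the cells kept. Setdb1, a target of the recombinase, had 4646 and 3341 keratinocyte UMIs in Ctrl and 2096 and 2310 in TKO. Its log2 change of -0.64 had an edgeR adjusted p of 0.0514 that missed the threshold. The same gene fell in basal-like cells, by 0.62 on the log2 scale, with an edgeR adjusted p of 0.0339. Values of Suv39h1, the other target, are not given here. Cells are not replicates, so UMIs were summed per library and class. Adjusted p-values are from edgeR's quasi-likelihood test with Benjamini-Hochberg adjustment over all genes tested in that class, with n = 2 libraries per group, and a gene was called at an adjusted p under 0.05. These p-values measure the spread between 2 embryos of each group.

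One library stood apart in these genes and is named before the results that rest on it. In TKO replicate 2, 10 of the 29 genes tested in keratinocytes were over 2 times the highest of the other 3 libraries, against 0.576% of all genes tested. The 10 were Irf7, Irf9, Oas1a, Oas1b, Oasl2, Isg15, Usp18, Rsad2, Bst2 and Rtp4. In immune-like cells the same held for 21 of 31 genes tested, against 0.802% of all. No gene of the list stood out in this way in any of the other 3 libraries, in either class. A gene abundant in TKO alone enters the test, as Oas1a and Rsad2 did in keratinocytes. These counts therefore describe the genes tested and not the whole list.

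In Ctrl, most genes of the list were highest in immune-like cells, though the share of all genes highest there is not given. In the Ctrl libraries, 32 of the 37 had their highest mean CPM in immune-like cells, against 2 in hair follicle-like, 2 in suprabasal-like and 1 in basal-like cells. Some of the 32 were near the floor there, with 0.273 CPM for Oas3, 0.797 CPM for Ifi44 and 1.002 CPM for Ifit3b. Ifitm3, a membrane protein that blocks virus entry, was by far the most abundant of the list in keratinocytes and had its highest Ctrl mean, 240.7 CPM, in hair follicle-like cells. Ifi202b, a member of the DNA-binding p200 family, was also highest there, at 83.9 CPM. These are levels in CPM and each gene is compared with itself across classes.

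Oas1f and Ifi35 were the 2 genes highest in suprabasal-like cells. Oas1f, a member of the oligoadenylate synthetase family, had 64.8 and 49.4 CPM in suprabasal-like cells of the Ctrl libraries and 21.3 and 44.3 CPM in those of the TKO libraries. In basal-like and hair follicle-like cells it stayed under 0.4 CPM in every library. No UMI of Oas1f was found in immune-like cells. Its genotype groups did not overlap in suprabasal-like cells, yet the log2 change of -0.85 ± 0.37 (SE) had an adjusted p of 0.327. Ifi35, which interacts with other interferon-induced proteins, had 29.0 and 22.4 CPM in Ctrl and 21.8 and 28.9 CPM in TKO suprabasal-like cells, with overlapping groups.

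Irf1 was the gene whose Ctrl mean was highest in basal-like cells among the 4 classes, and its Ctrl embryos differed by more than its genotype groups. This transcription factor had 4.83 and 21.0 CPM in Ctrl keratinocytes and 15.6 and 9.19 CPM in TKO keratinocytes. Both TKO values lay between the Ctrl values, and the log2 change was -0.07 ± 0.66 (SE). Eif2ak2 (PKR), a kinase that halts translation on double-stranded RNA, had 24.8 and 26.1 CPM in Ctrl and 31.1 and 33.4 CPM in TKO keratinocytes. Its groups did not overlap, but the log2 change of 0.33 ± 0.11 (SE) had an adjusted p of 0.155.

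**Figure D1:**
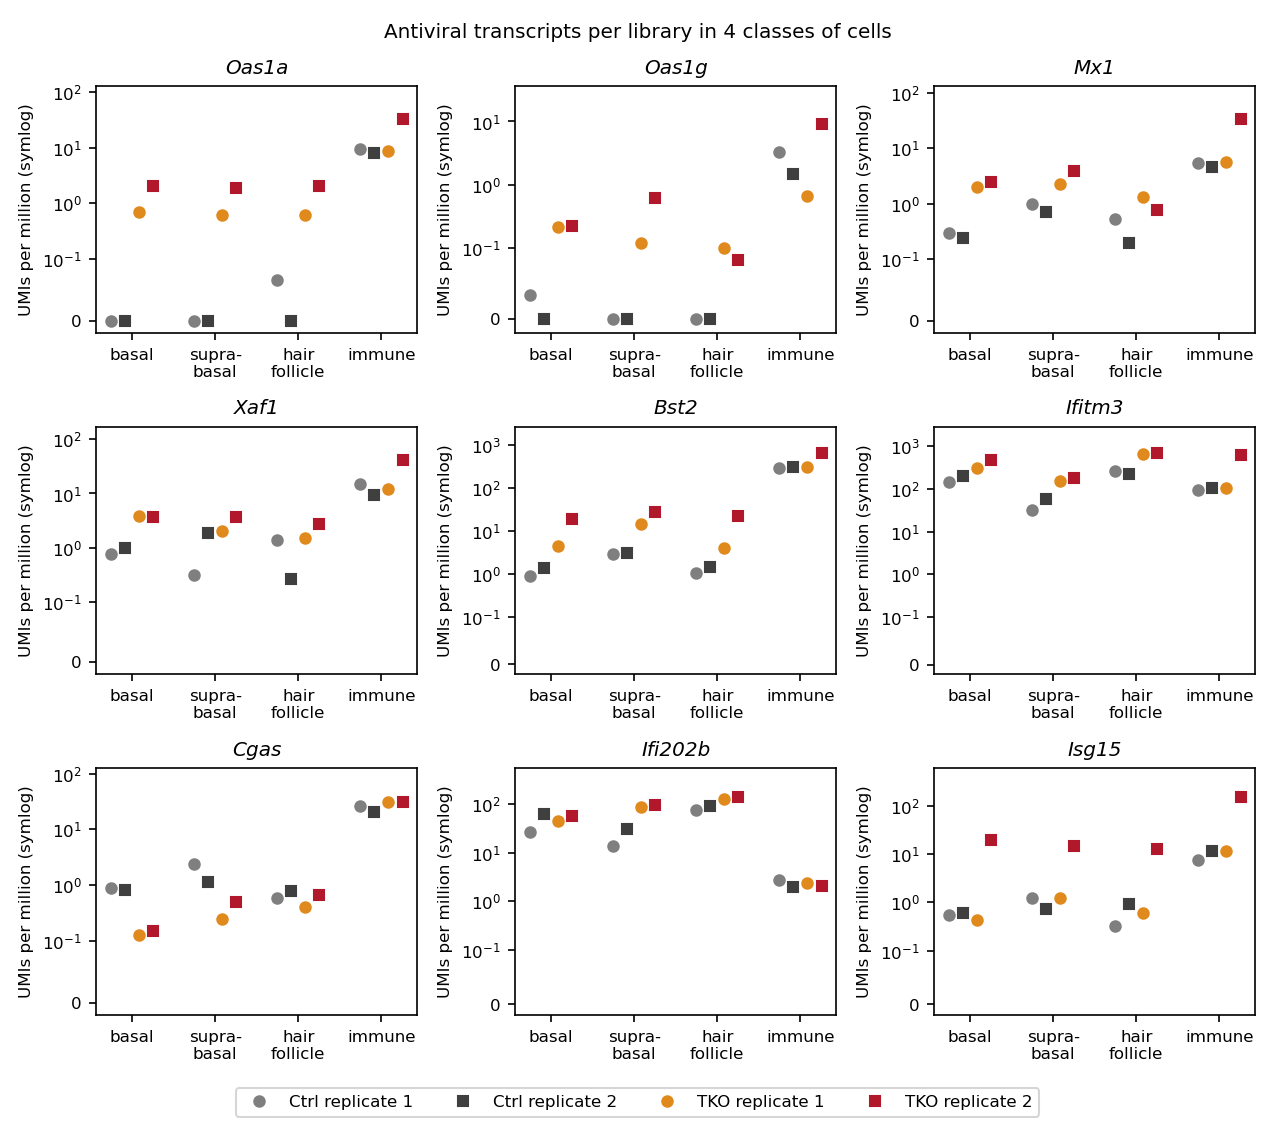
CPM (symmetric log axis, with 0 shown) of 9 interferon and antiviral genes in basal-, suprabasal-, hair follicle- and immune-like cells, 1 point per library for the 2 Ctrl and 2 TKO libraries. In basal-like cells both TKO points lay above both Ctrl points for Oas1a, Oas1g, Mx1, Xaf1, Bst2 and Ifitm3 and below them for Cgas, whereas Isg15 was high in TKO replicate 2 and at 0.439 CPM in TKO replicate 1.

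In keratinocytes as a whole, a small group of antiviral effectors was higher in both TKO embryos, and most of the list was not called. Of the 37 genes, 29 passed the expression filter, and 5 of these were raised and 0 lowered, where 3.87% of all genes tested were raised. The 5 were Oas1a, Oas1g, Mx1, Xaf1 and Ifitm3. The median log2 change of the 29 was 0.72, beside -0.02 over all genes tested. Both TKO values lay above both Ctrl values for 12 of the 29 and below for 3, and the share of all genes tested that lay apart in this way is not given. A gene that is abundant in TKO alone passes the filter, so these counts and the median describe the genes tested and not the whole list.

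The Oas genes encode synthetases that, on binding double-stranded RNA, make the messenger that activates RNase L. Oas1a had 1 UMI in each Ctrl library, 44 UMIs in TKO replicate 1 and 115 UMIs in TKO replicate 2. Both TKO embryos were therefore far above Ctrl, with a ratio of the pooled levels of 93.1 (95% interval 25.3 to 775, counting error only). Oas1g had 1 and 0 UMIs in Ctrl and 11 and 16 UMIs in TKO, a pooled ratio of 31.6 (interval 5.21 to 1294). Both genes passed the expression filter through their TKO values alone, so that their calls are no support beyond the counts, and no fit that left out 1 library called Oas1g. The 2 genes lie side by side on GRCm39 chromosome 5, Oas1a from 121031070 to 121046449 and Oas1g from 121014205 to 121025676.

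The other Oas genes did not share this pattern. Oas1b had 16, 21, 13 and 75 UMIs in Ctrl replicates 1 and 2 and TKO replicates 1 and 2. Oasl2 had 24, 35, 21 and 191 UMIs in the same order. Both were high in TKO replicate 2 and at Ctrl level in TKO replicate 1, and neither was called. Oas2, Oas3 and Oasl1 had at most 10 UMIs in any library and did not pass the filter.

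Mx1, a GTPase that traps viral nucleocapsids, had 39 and 19 UMIs in Ctrl and 104 and 135 UMIs in TKO keratinocytes. This is 0.45 ± 0.17 CPM (SD, n = 2) against 2.22 ± 0.36 CPM, a log2 change of 2.27 ± 0.37 (SE) with an edgeR adjusted p of 0.0339. Its paralog Mx2 had overlapping groups, with 1.05 and 0.784 CPM in Ctrl and 0.718 and 1.52 CPM in TKO. Xaf1, a proapoptotic interferon target, had 51 and 56 UMIs in Ctrl and 162 and 184 UMIs in TKO. Its log2 change was 1.89 ± 0.26 (SE) with an adjusted p of 0.0224, and the 2 embryos of each group lay close together.

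Ifitm3 carried the largest number of molecules. It had 8981 and 9818 UMIs in Ctrl and 18542 and 24377 UMIs in TKO keratinocytes, or 131.6 and 171 CPM against 350 and 448 CPM. The rise was 2.62-fold, a log2 change of 1.39 ± 0.19 (SE) with an adjusted p of 0.0219. Bst2 (tetherin), which holds budding virions at the cell surface, had 1.63 and 1.72 CPM in Ctrl and 6.42 and 22.1 CPM in TKO. Both TKO embryos exceeded both Ctrl embryos, but they differed from each other, and the log2 change of 3.09 ± 0.62 (SE) had an adjusted p of 0.0526.

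Among the sensors, Cgas, the cytosolic DNA sensor that makes cyclic GMP-AMP, was the one gene of the list lowered in any class. It had 88 and 50 UMIs in Ctrl and 12 and 19 UMIs in TKO keratinocytes. The groups did not overlap, and the log2 change of -1.92 ± 0.41 (SE) had an adjusted p of 0.0600 over all keratinocytes. Ifih1 (MDA5), a sensor of long double-stranded RNA, had 3.56 and 4.09 CPM in Ctrl and 6.42 and 7.59 CPM in TKO, with an adjusted p of 0.0750. Dhx58 (LGP2), its regulator, had 0.674 and 0.627 CPM in Ctrl and 0.963 and 0.864 CPM in TKO, with an adjusted p of 0.385. Tlr3, the endosomal sensor, had at most 17 UMIs in a library.

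None of the adaptor and transcription factor genes of the list was called in keratinocytes. Mavs, the mitochondrial adaptor of the RNA sensors, had 5.61 and 6.48 CPM in Ctrl and 5.40 and 4.98 CPM in TKO. Stat2 had 6.23 and 7.46 CPM in Ctrl and 7.07 and 6.74 CPM in TKO, with overlapping groups. Irf9, the DNA-binding partner of Stat2, had 5.64 and 5.66 CPM in Ctrl, 4.68 CPM in TKO replicate 1 and 11.5 CPM in TKO replicate 2. Irf7, which amplifies interferon production, had 0.190 and 0.470 CPM in Ctrl and 0.586 and 1.25 CPM in TKO, with an adjusted p of 0.210.

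The calls depended on which embryos entered the fit. The share of all genes called in these fits is not given, here or in the classes below, so the counts only describe the list. Without TKO replicate 2, 7 genes were called, Oas1a, Mx1, Xaf1, Ifitm3 and Bst2 raised and Cgas and Oas1f lowered, with the remaining TKO library assumed to vary like the Ctrl libraries. Without TKO replicate 1, 11 were called (Bst2, Ifi44, Ifit1, Ifitm3, Irf9, Isg15, Mx1, Oas1a, Oas1b, Oasl2 and Xaf1), without Ctrl replicate 2, 1 (Ifitm3), and without Ctrl replicate 1, 0. Fibroblast markers in keratinocytes summed to 839 to 1128 CPM and immune markers to 8.99 to 16.54 CPM, the latter highest in TKO replicate 2. The 6 erythroid markers, genes of red blood cells, summed to 18.85 to 22.6 CPM in the keratinocytes of 3 libraries and to 37.4 CPM in TKO replicate 2. The part of these markers in the values was not tested.

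The same genes were then followed by layer. In basal-like cells, named by Krt5, Krt14, Krt15 and other basal markers, 5 of 23 genes tested were raised, where 7.97% of all genes tested were raised. These were Oas1a, Mx1, Xaf1, Bst2 and Ifitm3. Cgas was the 1 gene of the 23 lowered, a share no higher than the 4.54% of all genes tested that were lowered. The median log2 change was 0.72 for the genes tested, beside -0.01 for all.

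Oas1a had 0 UMIs in basal-like cells of both Ctrl libraries, and 22 and 55 UMIs in those of the TKO libraries. Against 3 counts over the Ctrl group this is at least 25.9-fold higher. Oas1a passed the expression filter through the TKO libraries alone, so its call supports nothing beyond these counts. Mx1 had 9 and 7 UMIs in Ctrl and 65 and 67 UMIs in TKO basal-like cells, a log2 change of 3.06 ± 0.38 (SE) with an adjusted p of 0.00555. Xaf1 rose 4.22-fold, from 0.769 and 0.992 CPM to 3.80 and 3.64 CPM, with an adjusted p of 0.00797. For these 3 genes both TKO embryos contributed.

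Bst2 and Ifitm3 rose in basal-like cells with unequal TKO embryos. Bst2 had 0.903 and 1.37 CPM in Ctrl, 4.55 CPM in TKO replicate 1 and 19.2 CPM in TKO replicate 2, with an adjusted p of 0.0269. Ifitm3 had 142 and 196 CPM in Ctrl and 300.5 and 470.1 CPM in TKO, with an adjusted p of 0.0284. Cgas had 26 and 24 UMIs in Ctrl and 4 UMIs in each TKO library, a fall by 2.58 on the log2 scale with a standard error of 0.48 and an adjusted p of 0.0199. Cgas was called without TKO replicate 2 and lost its call without any 1 of the other 3 libraries. Without TKO replicate 1, 11 genes were called, and without Ctrl replicate 1, 3 (Mx1, Oas1a and Xaf1).

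In suprabasal-like cells, the differentiating layer with Krt1 and Krt10, 1 of 19 genes tested was raised, where 1.05% of all genes tested were raised. This was Bst2, with 2.91 and 2.97 CPM in Ctrl and 14.2 and 27.5 CPM in TKO, a 6.84-fold rise with an adjusted p of 0.0415. The fit without Ctrl replicate 1 lost this call and called Ifi202b and Ifitm3 instead. Ifitm3 had 31.7 and 57.2 CPM in Ctrl and 150.3 and 174 CPM in TKO suprabasal-like cells, with an adjusted p of 0.0522. The smallest suprabasal-like group held 230 cells, and DESeq2 called 5 of the genes.

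In hair follicle-like cells, 3 of 20 genes tested were raised, where 6.99% of all genes tested were raised. Ifitm3 had 262 and 220 CPM in Ctrl and 643 and 697 CPM in TKO. The log2 change was 1.52 ± 0.13 (SE), with an adjusted p of 9.27e-04. Ifi202b had 75.1 and 92.7 CPM in Ctrl and 125 and 138 CPM in TKO, a 1.61-fold rise with an adjusted p of 0.0170. Bst2 had 1.05 and 1.45 CPM in Ctrl, 3.88 CPM in TKO replicate 1 and 21.7 CPM in TKO replicate 2, with an adjusted p of 0.0284. Ifitm3 was called in hair follicle-like cells without any 1 of the 4 libraries, whereas 9 genes were called without TKO replicate 1 and 1 without Ctrl replicate 1.

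**Figure D2:**
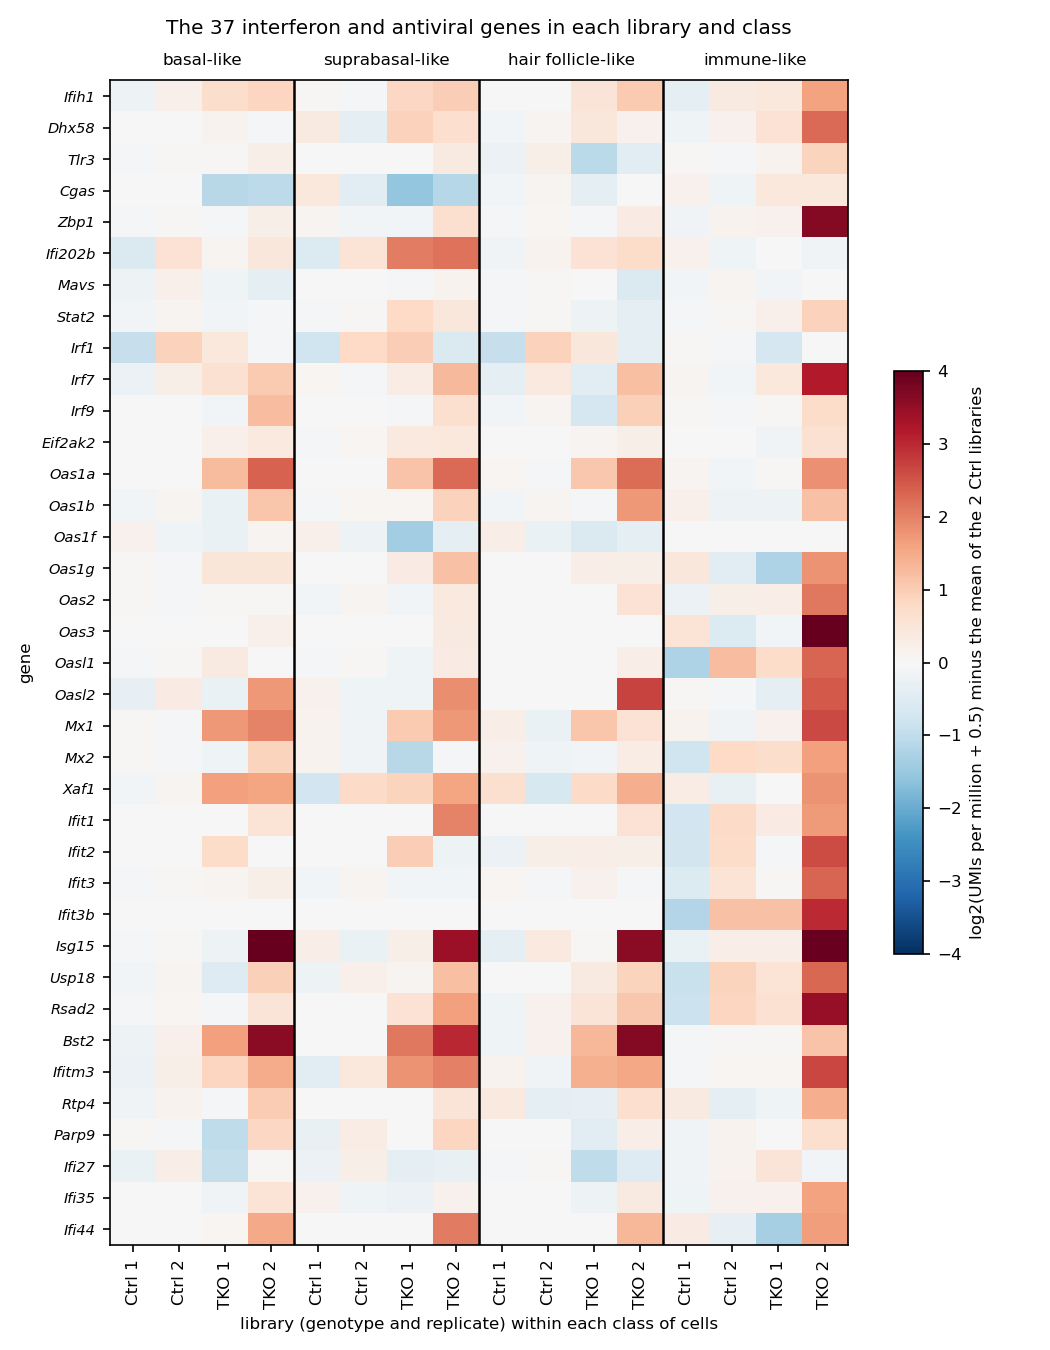
Heat map of the 37 interferon and antiviral genes (rows) by library (columns) in basal-, suprabasal-, hair follicle- and immune-like cells, coloured by log2(CPM + 0.5) minus the mean of the 2 Ctrl libraries of that class, with colours limited at 4. TKO replicate 2 had the highest CPM for 31 of the 37 genes in immune-like cells, where the share of all genes is not given. Oas1a, Bst2 and Ifitm3 were above Ctrl in both TKO libraries in the 3 keratinocyte classes.

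Whether the genotype effect differed between layers was tested with both classes of each library in 1 fit. Between basal-like and suprabasal-like cells, 1 of 26 genes tested differed, where 0.179% of all genes tested did. This gene was Ifi202b, whose effect was more positive by 1.79 ± 0.13 (SE, log2) in suprabasal-like cells, with an edgeR adjusted p of 0.0253. In suprabasal-like cells it had 14.0 and 30.7 CPM in Ctrl and 86.3 and 95.8 CPM in TKO. In basal-like cells it had 27.1 and 61.4 CPM in Ctrl and 44.5 and 55.7 CPM in TKO. The suprabasal groups thus lay apart, and the basal groups overlapped. In a fit without the library as a term, 0 genes of the list differed.

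Between basal-like and hair follicle-like cells, 0 of 27 genes tested differed, where 3.65% of all genes tested did, and 1 gene, Cgas, had an unadjusted edgeR p under 0.05. Cgas had 9 and 12 UMIs in Ctrl and 4 and 8 UMIs in TKO hair follicle-like cells. Its effect there was more positive than in basal-like cells by 2.29 ± 0.72 (SE, log2), with an adjusted p of 0.148.

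Since the study calls the deletion mosaic, TKO keratinocytes were also divided by 7 genes, none of them in the list, that are transcribed in TKO and nearly silent in Ctrl. Cells with at least 2 UMIs of these genes at 5000 UMIs per cell are called derepressed, and numbered 841 and 751 in the TKO libraries. Cells with 0 are called silent, and numbered 502 and 699. In the Ctrl libraries, 5 and 5 keratinocytes met the first rule. Both TKO sets were compared with the same Ctrl keratinocytes, so the comparisons share their controls and the difference between them was not tested.

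In derepressed cells, 6 of 26 genes tested were raised, where 4.6% of all genes tested were raised, and Cgas was lowered, where 2.44% of all were. The 6 were Oas1a, Oas1g, Mx1, Xaf1, Ifitm3 and Bst2. Oas1a and Oas1g passed the expression filter through their TKO values alone here too, so their calls add nothing beyond the counts. In silent cells, 1 of 25 was raised, Ifitm3, where 1.57% of all genes tested were. As in keratinocytes as a whole, the fit without Ctrl replicate 1 called 0 genes in derepressed cells and the fit without Ctrl replicate 2 called 1, Ifitm3.

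The levels in the 2 sets are given side by side for TKO replicates 1 and 2. Oas1a had 1.202 and 2.457 CPM in derepressed cells, and 0.183 and 1.55 CPM in silent cells. Mx1 had 2.69 and 3.62 CPM in derepressed and 0.974 and 1.45 CPM in silent cells. Xaf1 had 3.89 and 4.27 CPM in derepressed and 2.37 and 2.28 CPM in silent cells. Each of these 3 was higher in the derepressed cells of both embryos, and its silent cells were still above the Ctrl keratinocytes. For Oas1a the silent cells held 3 UMIs in TKO replicate 1 and 32 UMIs in TKO replicate 2, against 1 UMI in each Ctrl library. Silent cells were named by missing UMIs at a limited depth per cell, so the set can include derepressed cells. Whether the silent cells had escaped the deletion was not tested.

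Cgas ran the other way, with 0.106 and 0.215 CPM in derepressed and 0.487 and 0.629 CPM in silent cells, against 1.29 and 0.871 CPM in Ctrl. Ifitm3 had 369 and 428 CPM in derepressed and 306 and 452 CPM in silent cells. Isg15 had 0.424 and 14.8 CPM in derepressed and 0.608 and 13.4 CPM in silent cells. For Ifitm3 and Isg15 the sets did not differ in the same direction in both embryos, and Isg15 was higher in TKO replicate 2 in both.

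**Figure D3:**
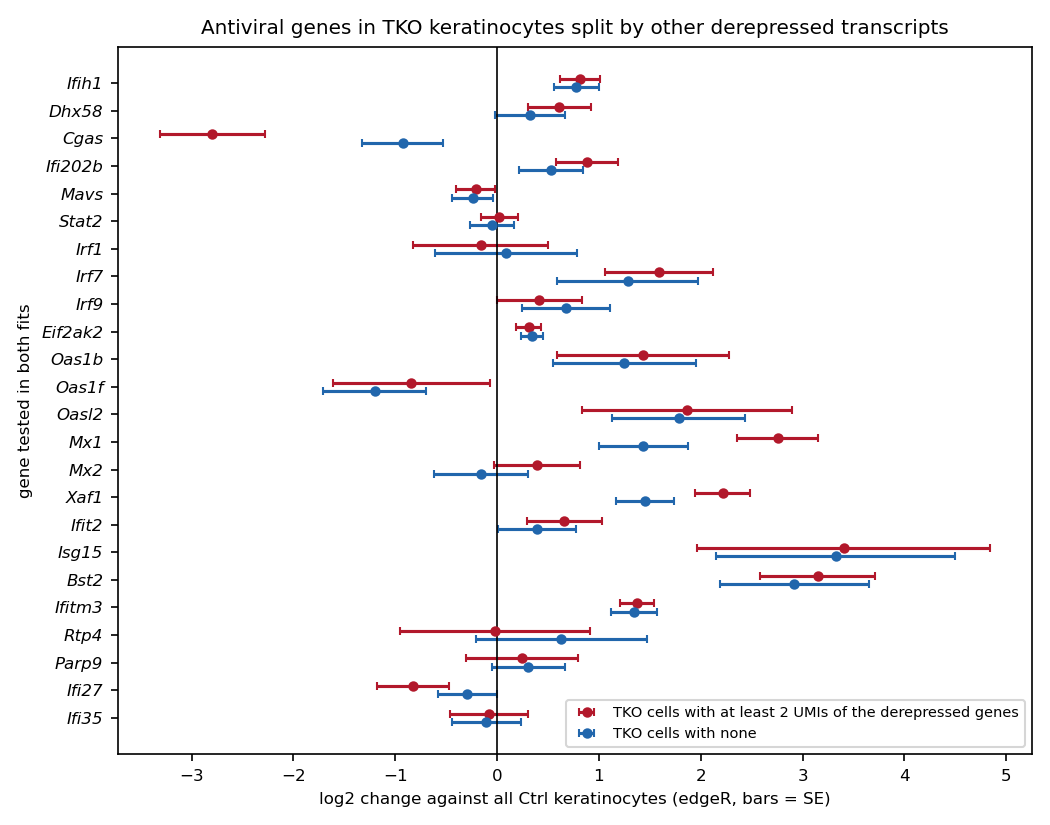
Log2 change against the same Ctrl keratinocytes (x axis, bars are the standard error of edgeR) of the 24 interferon and antiviral genes tested in both derepressed (red) and silent (blue) TKO keratinocytes. Mx1 was at 2.76 in derepressed and 1.44 in silent cells and Cgas at -2.80 and -0.93, while the bars of Ifitm3, Bst2 and Isg15 overlapped.

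Isg15, the ubiquitin-like protein that interferon induces in most cells, showed the difference between the TKO embryos most plainly. It was chosen for this description after its values were seen. It had 49 and 41 UMIs in Ctrl keratinocytes, 32 UMIs in TKO replicate 1 and 887 UMIs in TKO replicate 2. The log2 change of 3.57 ± 1.39 (SE) had an edgeR adjusted p of 0.197, and without TKO replicate 2 it was -0.28. Within TKO replicate 2, Isg15 reached 19.4 CPM in basal-like, 15.1 CPM in suprabasal-like and 12.8 CPM in hair follicle-like cells, against at most 1.25 CPM in these classes of any other library.

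Further targets followed the same embryo. Ifi44 had 0 UMIs in both Ctrl libraries, 2 in TKO replicate 1 and 57 in TKO replicate 2. Ifit1, which binds viral RNA that lacks the host cap mark, had 0, 0, 1 and 30 UMIs in the same order. Usp18, the protease that removes Isg15 from proteins, had 7, 12, 5 and 44 UMIs. Rsad2 (viperin) differed in that both TKO embryos exceeded Ctrl, with 0 and 4 UMIs in Ctrl and 10 and 31 UMIs in TKO and an adjusted p of 0.138. The related Ifit2 and Ifit3 were not high in TKO replicate 2, with 1.34 CPM and 3 UMIs there, against 2.49 CPM and 5 UMIs in TKO replicate 1. Ifit3b had no keratinocyte UMI in any library.

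A sum cannot tell a few cells with many transcripts from many cells with few, so cells were counted after each had been thinned to 5000 UMIs. Median keratinocytes held 21963 and 17340.5 UMIs in Ctrl and 30124 and 28106 UMIs in TKO before thinning. Bst2 was detected in 0.461% and 0.847% of Ctrl keratinocytes and in 3.24% and 9.02% of TKO keratinocytes. Oas1a was detected in 0 of 2819 cells in Ctrl replicate 1, which allows a share of up to 0.106% of cells with a UMI at that depth (3 counts, counting error only). It was found in 1 of 2953 cells in Ctrl replicate 2, 10 of 1573 in TKO replicate 1 and 25 of 1786 in TKO replicate 2.

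Mx1 was detected in 0.213% and 0.271% of Ctrl and 0.890% and 1.57% of TKO keratinocytes. Xaf1 was detected in 0.284% and 0.305% of Ctrl and 1.14% and 1.46% of TKO keratinocytes. For Bst2, Oas1a, Mx1 and Xaf1 the groups did not overlap, and the exact two-sided permutation test gave p = 0.3333, the smallest that 2 against 2 libraries allow. Isg15 was detected in 0.390% and 0.169% of Ctrl keratinocytes, 0.127% in TKO replicate 1 and 4.76% in TKO replicate 2. In cells that were not thinned, the shares in the same order were 1.51%, 1.003%, 1.78% and 12.2%. No class of these data lacks the list's genes by definition, and the Ctrl shares stand in for the background.

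Few keratinocytes carried several of these transcripts together. A cell was counted as carrying the signature when it had UMIs of at least 3 of 18 interferon-stimulated genes at 5000 UMIs. This held for 16 of 1786 keratinocytes in TKO replicate 2, or 0.896% (95% Clopper-Pearson interval 0.513 to 1.45). It held for 0 of 2819 and 1 of 2953 keratinocytes in the Ctrl libraries and 0 of 1573 in TKO replicate 1. In cells that were not thinned it held for 1 of 2842 and 4 of 2992 in Ctrl, 8 of 1577 in TKO replicate 1 and 83 of 1793 in TKO replicate 2. Intervals and limits cover counting error only. The 16 cells were spread over layers, with 8 in basal-like, 4 in suprabasal-like and 4 in hair follicle-like cells. The exact permutation test of genotype gave p = 1.

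**Figure D4:**
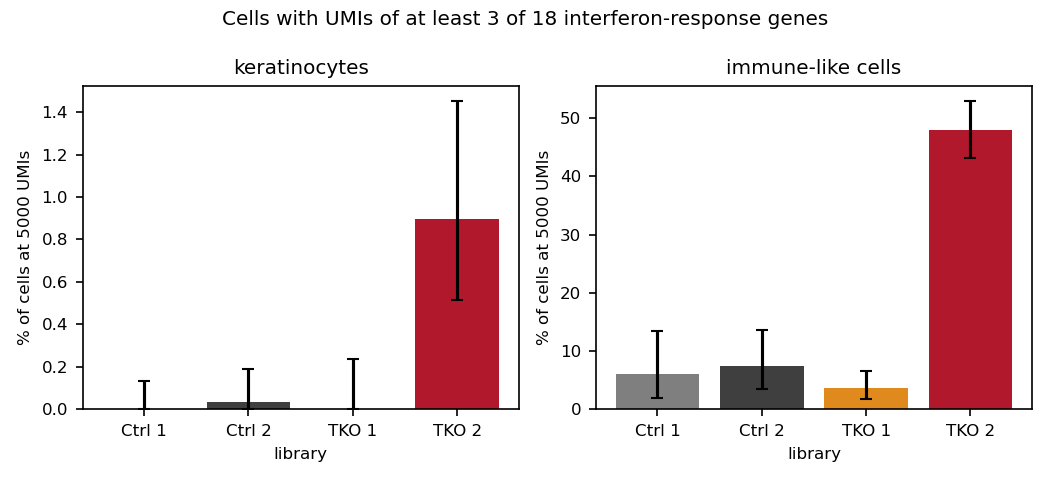
Percent of cells with UMIs of at least 3 of 18 interferon-stimulated genes at 5000 UMIs per cell, by library, in keratinocytes and in immune-like cells, with 95% Clopper-Pearson intervals. The share was 0.896% of keratinocytes and 48.0% of immune-like cells in TKO replicate 2, and at most 0.0339% and 7.38% in the other libraries.

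The share of cells that carried several of these transcripts was highest in the immune-like cells of TKO replicate 2. In the immune-like class, named by Ptprc, Tyrobp, Csf1r, C1qa and other markers, the signature was found in 200 of 417 cells of TKO replicate 2. It was found in 5 of 84 and 9 of 122 cells in Ctrl and in 10 of 278 cells in TKO replicate 1. The interval for TKO replicate 2, 43.1% to 52.9%, lay above those of the other 3 libraries, the highest of which reached 13.5%.

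Examples from several steps of the pathway, chosen after their values were seen, show the same library apart in immune-like cells. Isg15 had 7.65 and 11.5 CPM in Ctrl, 11.4 CPM in TKO replicate 1 and 152 CPM in TKO replicate 2. Rsad2 had 4.92, 17.5, 14.7 and 110.1 CPM in the same order. Ifitm3 had 91.8, 102, 102 and 614 CPM.

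Among sensors and regulators, Zbp1, a sensor of left-handed nucleic acid, had 3.28, 4.01, 4.18 and 52.1 CPM. Irf7 had 7.102, 6.01, 9.02 and 63.4 CPM. In each of these 5 genes TKO replicate 1 lay at or near the Ctrl libraries and TKO replicate 2 stood alone. Bst2, already abundant at 285 and 302 CPM in Ctrl and 300.0 CPM in TKO replicate 1, had 652 CPM in TKO replicate 2.

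Genes of the list with similar levels in the 4 immune-like sums included Mavs, at 18.03 to 21.04 CPM, and Irf1, at 8.52 to 14.2 CPM. Cgas, lowered in basal-like cells, had 26.2 and 20.5 CPM in Ctrl and 31.6 and 31.1 CPM in TKO immune-like cells. It was thus above Ctrl in both TKO embryos here, with a log2 change of 0.36 and an adjusted p of 0.797.

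Over the 2 embryos of each group, 0 of 31 genes tested were called in immune-like cells, where 0.0251% of all genes tested were called in either direction. At an unadjusted edgeR p under 0.05, 3 were higher, Dhx58, Irf7 and Isg15, where 3% of all genes tested were, and DESeq2 also called 0. The median log2 change was 1.07 for the genes tested, beside -0.0040 for all, and 29 of the 31 had a positive log2 change. Without TKO replicate 1, where the remaining TKO library is assumed to vary like the Ctrl libraries, 15 genes were called, and without TKO replicate 2, 0 were. A cluster rich in Alas2, an enzyme of haem synthesis in red blood cells, made up 19 of 84 and 25 of 123 immune-like cells in Ctrl. It made up 35 of 279 in TKO replicate 1 and 144 of 423 in TKO replicate 2. Leaving this cluster out gave 0 calls as well. In the largest immune cluster alone, Isg15 had 6.76 and 8.41 CPM in Ctrl and 12.4 and 177 CPM in TKO, so the gap was as large there.

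The keratinocyte level was also set against the immune-like level within each library. Over the 12 immune markers it had a median of 0.0232%, 0.0312%, 0.0522% and 0.112% in Ctrl replicates 1 and 2 and TKO replicates 1 and 2, and a highest value of 3.87%, 6.04%, 3.41% and 2.16%, that of Cd52. Isg15 stood at 9.38%, 6.20%, 5.32% and 10.7% in the same order. Bst2 stood at 0.571%, 0.571%, 2.14% and 3.39%. Oas1a stood at 0.158%, 0.217%, 9.39% and 6.58%, and Rsad2 at 0%, 0.397%, 1.29% and 0.518%. The marker median was thus highest in TKO replicate 2, and the part of free RNA from immune cells in the keratinocyte values was not tested.

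Fibroblast-like cells, a class outside the reach of the K14 promoter, were read in the same way without a test. They numbered 105 and 107 in Ctrl and 191 and 131 in TKO. Bst2 had 10.3 and 12.6 CPM in Ctrl and 57.0 and 97.1 CPM in TKO fibroblast-like cells. Ifit1 had 0 UMIs in both Ctrl libraries and 16 and 21 UMIs in TKO, at least 6.37-fold higher over 3 counts in the Ctrl group. Isg15 had 0 and 0 UMIs in Ctrl and 9 and 49 UMIs in TKO. Both TKO embryos exceeded both Ctrl embryos for these 3 genes, whereas Oas1a and Mx1 had at most 2 UMIs in any library. Over the list, TKO replicate 2 was highest for 25 of the 37 genes and TKO replicate 1 for 7. TKO replicate 2 was over 2 times the highest other library for 11, Ifit1 and Isg15 among them, and TKO replicate 1 for 2, Oas1a and Mx1. The shares of all genes are not given beside these counts. A lead can rest on few UMIs, as it did for Oas1a and Mx1.

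Other genes of the pathway, 89 listed and 87 found in the files, were followed alongside. Of 10 interferon ligands, 7 had 0 keratinocyte UMIs, among them Ifnb1, Ifna1 and Ifng, where a count of 0 allows up to 3 UMIs among the 233027251 keratinocyte UMIs. Ifnk, an interferon of keratinocytes, was the highest, with 10 and 8 UMIs in Ctrl and 5 and 15 UMIs in TKO. In immune-like cells 8 of the 10 had 0 UMIs and the others had 2 each, both in TKO replicate 2. Ligand transcripts were thus at or near the detection limit in every library.

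Of the receptors, 6 of 6 were tested. The chains of the type I receptor did not separate the groups in keratinocytes, with 20.6 and 26.4 CPM of Ifnar1 in Ctrl and 23.2 and 21.8 CPM in TKO. Ifngr1, the ligand-binding chain of the interferon gamma receptor, fell in basal-like cells, from 27.6 and 30.7 CPM to 5.61 and 11.5 CPM, with an adjusted p of 0.0183. It fell as well in hair follicle-like cells, from 18.5 and 20.4 CPM to 4.90 and 8.34 CPM, with an adjusted p of 0.0114. The log2 change there was -1.50, against -0.31 and no call in classes from uncorrected components, -0.83 and no call with doublets kept and -0.97 and no call at the lower cluster resolution. The call was also lost without Ctrl replicate 2, at -1.44.

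Among 41 further effectors found, 24 were tested in keratinocytes and 1 was raised, B2m, the light chain of MHC class I, where 3.87% of all genes tested were raised. B2m had 27.7 and 37.7 CPM in Ctrl and 57.5 and 60.5 CPM in TKO keratinocytes, a 1.79-fold rise with an adjusted p of 0.0463. It also rose in basal-like and hair follicle-like cells, by 1.62-fold and 1.85-fold. In hair follicle-like cells 3 of 47 pathway genes tested were raised, a share below the 6.99% of all genes tested. Besides B2m this included Samhd1, which degrades nucleotides needed by retroviruses, with 23.4 and 25.8 CPM in Ctrl and 46.1 and 38.1 CPM in TKO. Ifitm1, a paralog of Ifitm3, rose there from 7.43 and 6.78 CPM to 20.2 and 11.1 CPM, with an adjusted p of 0.0371. Of the 4 fits that left out 1 library, 1 still called Ifitm1 and 2 still called Samhd1. In suprabasal-like cells edgeR called 0 of 40 tested, where 1.05% of all genes tested were raised, with 8 at an unadjusted p under 0.05, and DESeq2 called 3. In immune-like cells edgeR called 0 of 71 tested, and DESeq2 called 0. At an unadjusted edgeR p under 0.05 there were 9, of which 8 were higher, where 3% of all genes tested were higher.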

How the data were processed

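The authors prepared 10x Genomics 3' libraries and deposited 1 matrix per library, whose values are UMI counts that were not normalized. The matrix headers name Cell Ranger 7.1.0, and the methods of the study a different version with the build GRCm39. Whether intronic reads were counted, and with which annotation release, is not given in the sources used here. The study's list of litters gives another embryonic day for its single-cell litter than the labels, which were followed. Total UMIs per library are given in the report, and the number of UMIs behind a value sets its counting error.

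The 37 genes, the further pathway genes, the 18 signature genes and the 7 genes that mark derepressed cells were chosen with earlier results of these data known. Cells had to have 2000 or more detected genes and less than 10% of UMIs from mitochondria, and the top-scoring 0.8% per 1000 barcodes were removed as doublets. Clusters came from Leiden clustering at resolution 1 (scanpy 1.11.5, leidenalg 0.10.2) on 30 components of 2000 variable genes aligned by a rewritten Harmony, with keratinocytes clustered a second time without genes that differed between genotypes. Clusters were named "-like" from marker lists, and some naming rules were settled after cells had been seen.

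UMIs were summed per library and class and tested with edgeR 4.0.16 (R 4.3.3) with TMM factors and its expression filter, at a Benjamini-Hochberg adjusted p under 0.05, with genotype as the only term. Interactions had library and class as terms. DESeq2 1.42.0 was an alternative. The fits were tested on simulated data. Shares of cells were compared by exact two-sided permutation over libraries. Values per library are given for genes called in any fit, for Setdb1 and for the 6 of the list with the highest keratinocyte CPM. Isg15, Ifi44, Ifit1 and the other examples were chosen after their values were seen. Of the 37 genes, 3 overlap another gene on the same strand, where the gene of a read can be unclear. Another gene on the opposite strand overlaps 21 of them.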

Additional observations from a re-analysis of the deposited data

Results flagged for a closer look

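Results listed here are tests of a difference in genotype effect between cell classes, in fits with the library as a term. Ifi202b, the DNA-binding p200 protein, had a genotype effect more positive by 1.79 on the log2 scale in suprabasal-like than in basal-like cells, with an edgeR adjusted p of 0.0253. Of its values, 86.3 and 95.8 CPM in TKO suprabasal-like cells lay above 14.0 and 30.7 CPM in Ctrl, and the fit without the library as a term did not call it.

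Stat3, a transcription factor downstream of cytokine receptors, had a genotype effect that differed by -0.70 (log2) in hair follicle-like against basal-like cells, with an adjusted p of 0.00656. It had 116 and 203 CPM in Ctrl and 95.8 and 87.4 CPM in TKO hair follicle-like cells, and 72.6 and 141.8 CPM in Ctrl and 114.5 and 94.8 CPM in TKO basal-like cells. Socs3, the inhibitor that Stat3 induces, differed by -1.28 (log2), with an adjusted p of 0.00618. It had 15.4 and 41.5 CPM in Ctrl and 9.71 and 9.01 CPM in TKO hair follicle-like cells, and 10.0 and 34.2 CPM in Ctrl and 18.8 and 17.4 CPM in TKO basal-like cells. Both genes differed between the Ctrl embryos in both classes, by more than the TKO embryos did. Neither gene was called in hair follicle-like cells alone, with adjusted p of 0.0720 and 0.0504.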

How the results depend on the processing

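The count of genes called moved with the filter, the tool and the embryos. Shares of all genes called in the alternative fits are not given beside the counts. In keratinocytes the count was 5 as reported, 3 without the expression filter and 0 to 11 without 1 library. In basal-like cells it was 6 as reported, 10 without the filter and 3 to 11 without 1 library. In suprabasal-like cells it was 1 as reported, 5 with DESeq2, 13 without the filter, 3 in thinned cells, 3 with doublets kept, 2 with at least 3000 detected genes, 2 on uncorrected components and 1 to 3 without 1 library. In hair follicle-like cells it was 3 as reported, 5 with DESeq2, 5 with doublets kept and 1 to 9 without 1 library. In immune-like cells it was 0 as reported, 21 without the filter and 0 to 15 without 1 library. In derepressed keratinocytes it was 7 as reported, 14 without the filter and 0 to 10 without 1 library. Genes differing between basal- and suprabasal-like cells numbered 1 as reported, 2 without the filter and 0 without a library term, and between basal- and hair follicle-like cells 0 as reported and 2 without the filter. The cause was not tested in any of these.

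The replicate numbers do not mark shared embryos, and the deviations of same-numbered libraries correlated at -0.27 over 19970 genes. With a replicate block the counts were 4 (keratinocyte), 7 (basal-like), 2 (suprabasal-like), 4 (hair follicle-like), 0 (immune-like) and 5 (derepressed). With the numbers crossed, an alternative chosen after seeing the data, they were 9, 7, 7, 3, 0 and 7.

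The TKO minus Ctrl share of keratinocytes with a UMI, in percentage points at 5000 UMIs and in cells that were not thinned, was 2.16 and 5.74 for Isg15, 5.47 and 19.8 for Bst2, 0.987 and 4.12 for Mx1, 1.01 and 4.76 for Xaf1, and 1.001 and 4.03 for Oas1a. Without TKO replicate 2 the Isg15 difference was -0.153 and its highest without 1 library was 4.48. The signature difference was 0.431 as reported, 1.21 with at least 2 genes and 2.48 in cells that were not thinned. Signs turned in keratinocytes for Isg15 (log2 change -0.28 without TKO replicate 2, range -0.28 to 4.52 without 1 library), for Irf1 (0.22 with the replicate block, 0.21 crossed, -0.77 to 1.31 without 1 library) and for Ifi35 (0.17 in thinned cells, -0.56 to 0.29 without 1 library). Over single genes, 440 values kept direction and call, 83 lost the call, 20 gained it and 8 turned. Calls rested on 2 embryos per group, and 8 of the 37 genes in keratinocytes had too few UMIs to be tested.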

Other observations

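Further interferon-stimulated genes outside the list, read after the results were known, also stood apart in immune-like cells of TKO replicate 2. Ifi27l2a had 116 and 150.3 CPM in Ctrl, 196 CPM in TKO replicate 1 and 447 CPM in TKO replicate 2. Cmpk2, which lies beside Rsad2, had 0.546, 2.50, 3.67 and 14.8 CPM in the same order. In keratinocytes Cmpk2 had 0.498 and 0.557 CPM in Ctrl and 0.321 and 0.367 CPM in TKO, with an edgeR adjusted p of 0.339.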
